A study of Mus musculus with 20 samples.

Results

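Sterol sensing in mouse liver was followed through 7 genes, Srebf2, Scap, Insig1, Insig2, Mylip, Stard4 and Tmem97, in a study of pyruvate kinase. They were picked by name, with earlier results of these data known. All 7 of 7 were found among the 28100 genes that at least 1 of the deposited count tables lists. Male C57BL/6J mice received an AAV8 vector into a vein at 8 weeks of age, ate a diet labelled HF/HS and gave liver RNA at 25 weeks. There were 4 vectors, with 5 livers each: shPKLR, a short hairpin RNA that targets Pklr; shLUC, its control, whose hairpin targets firefly luciferase; PKLR, which adds the Pklr cDNA; and GFP, the control of that. Pklr encodes the liver isoform of pyruvate kinase, which catalyses the last step of glycolysis. Vectors were driven by a thyroxine binding globulin promoter, a hepatocyte promoter, so other liver cells are not the intended target, and no group was fed another diet. The hairpin and the cDNA were tested as separate experiments, each with its own control and its own count table.

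Cells measure cholesterol in the membrane of the endoplasmic reticulum. The transcription factor SREBP-2, the product of Srebf2, sits there bound to the escort Scap; when sterols are low, Scap carries it to the Golgi, where proteases free the part that enters the nucleus. When sterols are high, the Insig proteins, products of Insig1 and Insig2, hold Scap back and also steer sterol synthesis enzymes to degradation. SREBP-2 raises transcription of Insig1, of Srebf2 itself and of the sterol carrier Stard4, so these transcripts are commonly read as a gauge of its activity. Mylip is a ubiquitin ligase induced by the sterol-sensing LXR receptors that marks receptors of lipoprotein uptake for destruction. Tmem97 is a sterol-regulated membrane protein, also known as the sigma-2 receptor, that binds the cholesterol transporter NPC1.

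Promoter sequence was available from RefSeq (GRCm38.p6) for 6 of the 7 genes, all but Stard4. Shown are the 250 bases before the start of transcription for 4 of them, chosen because they span the responses: Srebf2 and Insig1, whose effects differed between the experiments, and Insig2 and Tmem97, which were lower with the hairpin (not called) and near 0 with the cDNA. Capitals mark matches, on either strand, to GGGCGG (the Sp1 box), to CCAAT (the NF-Y box) and to TCACNCCAN (a relaxed sterol regulatory element). The windows are chr15:82147019-82147268 on the plus strand for Srebf2, chr5:28071162-28071411 on the plus strand for Insig1, chr1:121332590-121332839 on the minus strand for the most upstream of 3 starts of Insig2, and chr11:78550736-78550985 on the minus strand for Tmem97.
Srebf2: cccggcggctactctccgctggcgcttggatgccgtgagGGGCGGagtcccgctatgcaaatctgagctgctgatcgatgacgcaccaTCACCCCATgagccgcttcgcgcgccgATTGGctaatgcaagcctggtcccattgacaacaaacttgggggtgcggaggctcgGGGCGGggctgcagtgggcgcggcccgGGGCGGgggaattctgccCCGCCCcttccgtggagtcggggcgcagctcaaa
Insig1: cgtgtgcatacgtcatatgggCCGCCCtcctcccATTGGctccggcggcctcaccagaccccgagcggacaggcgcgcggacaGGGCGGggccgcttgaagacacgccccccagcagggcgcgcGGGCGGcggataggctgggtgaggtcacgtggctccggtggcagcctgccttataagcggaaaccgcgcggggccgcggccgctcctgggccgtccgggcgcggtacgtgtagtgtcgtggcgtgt
Insig2: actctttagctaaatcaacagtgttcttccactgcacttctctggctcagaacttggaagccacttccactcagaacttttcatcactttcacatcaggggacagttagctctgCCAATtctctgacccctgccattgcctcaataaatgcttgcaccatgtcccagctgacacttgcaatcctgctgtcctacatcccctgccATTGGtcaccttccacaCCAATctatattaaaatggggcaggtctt
Tmem97: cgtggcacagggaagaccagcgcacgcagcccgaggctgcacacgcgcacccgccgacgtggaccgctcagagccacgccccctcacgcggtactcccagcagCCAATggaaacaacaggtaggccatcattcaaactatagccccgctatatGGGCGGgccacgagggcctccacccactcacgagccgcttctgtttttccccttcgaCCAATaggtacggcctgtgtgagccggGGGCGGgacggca

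The core of the sterol regulatory element, written TCACNCCAC, was in none of the 6 genes' windows of 300 bases, which run to 50 bases past the start; of all 32851 such windows in the table, 1.24% hold it. With any last base, a form added after the sequences were seen, the match TCACCCCAT appeared 162 bases before the start of Srebf2. It was in no other of the 6, and 4.95% of all genes (4.35% of windows) hold that form. In any window of a gene, CCAAT was found in 5 of the 6 genes, Scap being the exception, against 41.1% of all genes in the table (37.4% of windows). GGGCGG was found in all 6, for Insig2 in its other 2 windows only, against 38.2% of all genes (35.7% of windows). Among enzymes from mevalonate kinase to cholesterol, a list used below, CCAAT was in 14 of 14 genes with a window and GGGCGG in 13 of 14. The counts were 10 of 12 and 11 of 12 for genes of lipoprotein uptake and cell sterol transport. For SREBP cleavage and Insig turnover they were 4 of 8 and 5 of 8. For LXR receptors and targets they were 3 of 6 and 2 of 6. The Insig2 window shown holds 47.2% G and C, against 67.6% for Srebf2, 72.8% for Insig1 and 65.2% for Tmem97, and it has CCAAT or its reverse complement at 3 places and no GGGCGG. These are matches of letters; binding was not measured, and elements outside the windows were not searched.

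Libraries held 29933820 to 45413803 counts, except shPKLR replicate 4 with 167891680, and 20957 to 25250 genes had a count. Levels are in CPM, counts scaled to a common library total, with edgeR's TMM scaling within a table, and changes are log2 fold changes of the vector over its control from edgeR's quasi-likelihood test, called at a Benjamini-Hochberg adjusted p of 0.05 over all genes tested. The labels give 5 livers in each group and do not describe cages or litters. The vectors changed their target: Pklr fell to 52.95 ± 22.5 CPM in shPKLR livers, against 465 ± 112 CPM in shLUC livers (log2 fold change -3.13, SE 0.30, adjusted p = 0.00270). It rose to 772 ± 220 CPM in PKLR livers, against 122 ± 35.3 CPM in GFP livers (log2 fold change 2.67, SE 0.28, adjusted p = 0.00230; SD, n = 5 each). Among the PKLR livers, replicate 4 was the lowest for Pklr at 389 CPM, and the others read 801, 869, 945 and 854 CPM. All 8 hepatocyte markers, Alb and Ttr among them, had counts in every library.

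The genes lie apart, on GRCm38: Srebf2 (ENSMUSG00000022463) on chromosome 15 at 82147181 to 82205379, Scap (ENSMUSG00000032485) on chromosome 9 at 110333288 to 110384950, and Insig1 (ENSMUSG00000045294) on chromosome 5 at 28071363 to 28078662. Insig2 (ENSMUSG00000003721) is on chromosome 1 at 121304353 to 121332589, Mylip (ENSMUSG00000038175) on chromosome 13 at 45389742 to 45412022, Stard4 (ENSMUSG00000024378) on chromosome 18 at 33199355 to 33213862, and Tmem97 (ENSMUSG00000037278) on chromosome 11 at 78541817 to 78550777. Srebf2, Scap, Insig1 and Mylip are on the plus strand and the other 3 on the minus strand. The strand setting of the counting is not given in the sources used here; of the genes that overlap Scap and Insig2, 5830462I19Rik held at most 0.401% of the counts of Scap and Gm37174 at most 0.654% of those of Insig2.

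Per length of their exons, the genes ran in the order Insig1, Insig2, Tmem97, Scap, Stard4, Srebf2 and Mylip in shPKLR, shLUC and PKLR livers. In GFP livers Insig2, at 69.7 ± 12.0 CPM per kilobase, stood above Insig1, at 63.2 ± 17.8, and their ranges overlapped. Insig1 averaged 63.0 CPM per kilobase in shPKLR livers, 135 in shLUC livers and 108 in PKLR livers. The lowest of the 7, Mylip, averaged between 1.88 and 2.05 CPM per kilobase in the 4 groups. Scap and Stard4, neighbours in the order, overlapped in every group, whereas Tmem97 and Scap did so in none.

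**Figure D1:**
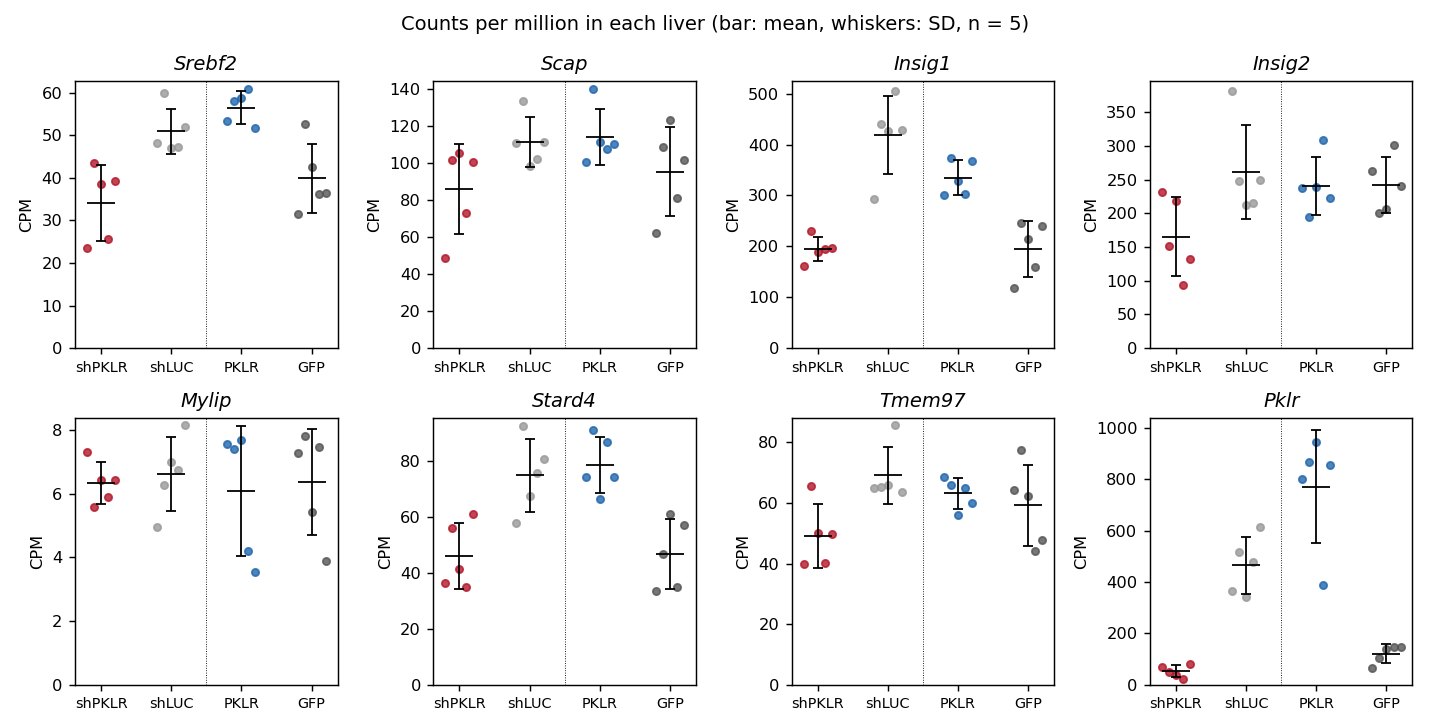
Scaled counts (CPM, vertical axis from 0) of the 7 sterol sensing genes and of Pklr in each of the 20 livers; points are livers, the long bar is the group mean and the whiskers are the SD (n = 5). The means of Insig1 and Stard4 are lower with shPKLR than with shLUC and higher with PKLR than with GFP, while the 4 groups of Mylip lie over one another.

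In the Pklr knockdown all 7 genes had a negative log2 fold change, and none passed the threshold. The median was -0.58, against 0.02 over all 15611 genes tested. edgeR called 0 of the 7 and 0.00641% of all genes, which is Pklr itself. At an unadjusted p under 0.05 it counted 5 of the 7, all lower (Srebf2, Insig1, Insig2, Stard4 and Tmem97), against 5.66% of all genes lower at that level. DESeq2 called 2 of the 7 lower, Insig1 and Stard4, against 0.884% of all genes it tested, and limma-voom called Insig1 lower, against 0.0448%. For 2 of the 7, Srebf2 and Insig1, every shPKLR liver lay below every shLUC liver, which held in this direction for 2.03% of all genes. In bulk RNA, fewer cells of a type cannot be told apart from less RNA per cell.

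With PKLR, 5 of the 7 genes had a positive log2 fold change and 2 (Insig2 and Mylip) a negative one, with a median of 0.26 against 0.01 over all 15842 genes tested. Stard4 was called, which is 1 of 7, against 1.19% of all genes called higher. An unadjusted p under 0.05 was reached by 3 of the 7, Srebf2, Insig1 and Stard4, all higher, against 9.68% of all genes. In Insig1 and Stard4 every PKLR liver lay above every GFP liver, as in 3.1% of all genes.

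The difference of the effects, overexpression less knockdown, was tested in a model of all 20 livers. It was called for Srebf2, Insig1 and Stard4, 3 of the 7, each positive, against 2.75% of all 16407 genes called in that direction. The median over the 7 was 0.63, against -0.06 over all genes. These 3 calls held in each of the 27 alternative fits, with differences of 0.95 to 1.19 for Srebf2, 1.73 to 1.97 for Insig1 and 1.34 to 1.57 for Stard4. Without shPKLR replicate 4, the library of far greater depth, they were 0.97 for Srebf2, 1.86 for Insig1 and 1.35 for Stard4, and the knockdown log2 fold changes were -0.49, -1.10 and -0.62 in the same order of genes.

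**Figure D2:**
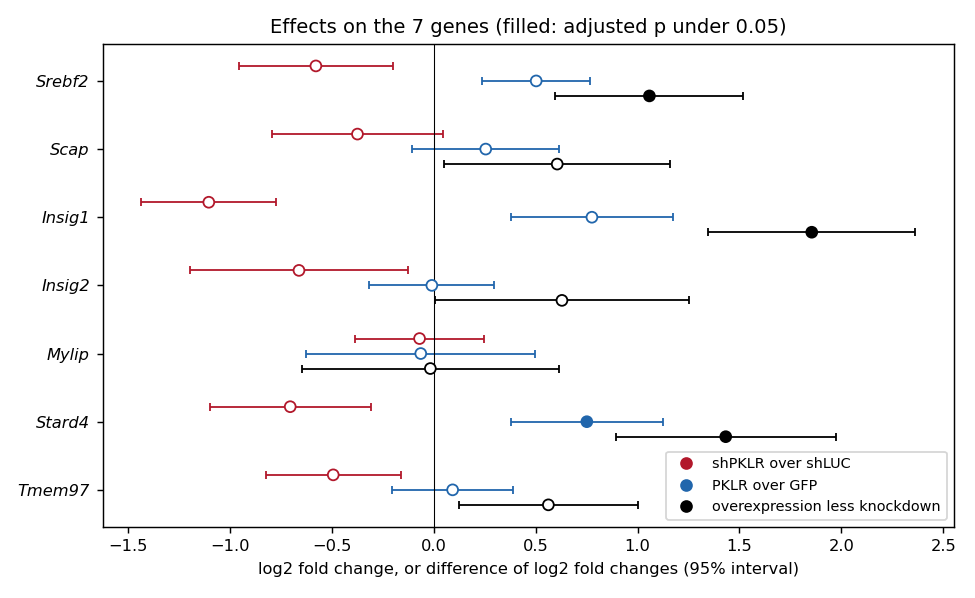
Log2 fold changes with 95% intervals (horizontal axis) for shPKLR over shLUC, PKLR over GFP, and the difference of these effects, for each of the 7 genes; filled points have an adjusted p under 0.05. The differences of Srebf2, Insig1 and Stard4, and the overexpression change of Stard4, are filled.

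Srebf2, the gene of the transcription factor, read 23.5, 43.6, 38.7, 25.7 and 39.3 CPM in the shPKLR livers, against 48.3, 59.9, 47.1, 47.3 and 52.1 CPM in the shLUC livers. The groups did not overlap, and shPKLR replicates 1 and 4 were the lowest. The mean was 34.1 ± 8.97 CPM in shPKLR livers and 50.9 ± 5.39 CPM in shLUC livers (SD, n = 5 each), or 67.1% of the control, for a log2 fold change of -0.58 (SE 0.17, adjusted p = 0.231), short of the threshold. Srebf2 read 53.4, 58.1, 58.7, 60.9 and 51.6 CPM in the PKLR livers, against 31.5, 52.6, 42.6, 36.3 and 36.6 CPM in the GFP livers. Of the PKLR livers 4 were above every GFP liver, and the fifth lay below GFP replicate 2 only. The log2 fold change was 0.50 (SE 0.12, adjusted p = 0.0595). Of 10 fits with 1 library left out, 1 called Srebf2, that without GFP replicate 2 (0.62, adjusted p = 0.0155). The adjusted p of the others ran up to 0.139. Between the experiments the effects differed by 1.06 (SE 0.22, 95% interval 0.60 to 1.52, adjusted p = 0.00968).

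Scap, the gene of the escort, had log2 fold changes nearer to 0 and a wide spread between livers. It ran from 48.9 to 106 CPM in shPKLR livers, against 98.6 to 134 CPM in shLUC livers, and all 5 shPKLR livers were below the shLUC mean. The log2 fold change of -0.37 (SE 0.19, 95% interval -0.79 to 0.05, adjusted p = 0.367) shrank to -0.23 without shPKLR replicate 1. PKLR livers ran from 100.4 to 139.8 CPM and GFP livers from 62.3 to 123 CPM, with a log2 fold change of 0.26 (SE 0.16, adjusted p = 0.433) that was 0.14 without GFP replicate 1. Between the experiments the effects differed by 0.61 (SE 0.27, adjusted p = 0.160), not called.

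Insig1, whose product anchors Scap and which is itself a target of SREBP-2, had the log2 fold changes farthest from 0 among the 7 in these fits. The shPKLR livers read 162, 230.2, 189, 195 and 198 CPM, against 293, 440.0, 427, 506 and 428 CPM in the shLUC livers. The groups stood clear of each other, and shLUC replicate 1 was the lowest of its group. The mean was 195 ± 24.3 CPM in shPKLR livers and 419 ± 77.2 CPM in shLUC livers (SD, n = 5 each), or 46.5% of the control, for a log2 fold change of -1.10 (SE 0.15, 95% interval -1.44 to -0.77). By p it ranked 2 among the 15611 genes, after Pklr, at an adjusted p of 0.0509; the adjusted p lay between 2.4e-08 (DESeq2) and 0.170 (without 1 library) over 18 alternatives, 8 of which called it, 2 of them by leaving out shLUC replicate 1 (0.0112) or shPKLR replicate 2 (0.0272).

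The PKLR livers read 301, 373, 329, 303 and 367 CPM for Insig1, against 117, 245, 215, 160.3 and 239 CPM in the GFP livers. No value was shared by the groups' ranges, and GFP replicates 1 and 4 were the lowest. The mean was 335 ± 34.4 CPM in PKLR livers and 195 ± 55.1 CPM in GFP livers, 1.71 times the control (log2 fold change 0.78, SE 0.18, adjusted p = 0.0534, not called). Insig1 was called in 2 of 10 fits with 1 library left out, those without GFP replicate 1 (adjusted p = 0.0433) or GFP replicate 5 (adjusted p = 0.0399). The adjusted p of the others ran up to 0.125. The difference of effects was 1.85 (SE 0.24, 95% interval 1.35 to 2.36, adjusted p = 0.000446), which ranked 7 among 16407 genes. The controls themselves stood apart, with Insig1 at 419 CPM in shLUC livers and 195 CPM in GFP livers. On a scale common to all 20 libraries, every member had a higher geometric mean in shLUC than in GFP livers, as did Pklr. It was 76.3 against 44.1 CPM for Stard4, 52.3 against 38.2 CPM for Srebf2 and 468 against 113 CPM for Pklr. Control vector and experiment cannot be told apart there, and no test was made across the tables.

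Insig2, the gene of the other anchor, was lower in mean with the hairpin, without a call, and level with its control in the other experiment. The shPKLR livers read 231, 152, 218, 93.4 and 132 CPM, against 382, 248, 212, 216 and 249 CPM in the shLUC livers. All 5 shPKLR livers were below the shLUC mean, 3 of them below every shLUC liver, and shLUC replicate 1 stood above the rest of its group. The log2 fold change was -0.66 (SE 0.25, 95% interval -1.19 to -0.13, adjusted p = 0.287). In the other experiment the level was 241 ± 42.6 CPM in PKLR livers and 242 ± 41.5 CPM in GFP livers (SD, n = 5 each), with a log2 fold change of -0.01 (SE 0.14, 95% interval -0.32 to 0.30, adjusted p = 0.980). Its difference of effects was 0.63 (SE 0.30, adjusted p = 0.192), so a difference between the experiments was not shown for Insig2.

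Since Insig1 and Insig2 encode anchors with the same partner, the log2 ratio of their CPM, not scaled by length, was taken within each liver. It was -0.51, 0.60, -0.20, 1.07 and 0.58 in shPKLR livers, against -0.38, 0.83, 1.01, 1.23 and 0.78 in shLUC livers. The groups overlapped over most of their range; the mean difference was -0.39 (two-sided exact permutation p = 0.310, adjusted over the 2 experiments 0.310). The ratio was 0.34, 0.94, 0.46, -0.03 and 0.72 in PKLR livers, against -1.16, 0.29, 0.06, -0.91 and -0.01 in GFP livers. Per exon length, Insig1 was above Insig2 in 5 of 5 PKLR livers and in 3 of 5 GFP livers. The mean difference was 0.83 (two-sided exact permutation p = 0.0397, adjusted over the 2 experiments 0.0794), and p stayed under 0.05 in 4 of the 10 tests without 1 liver, those without PKLR replicate 4 and GFP replicates 2, 3 and 5.

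**Figure D3:**
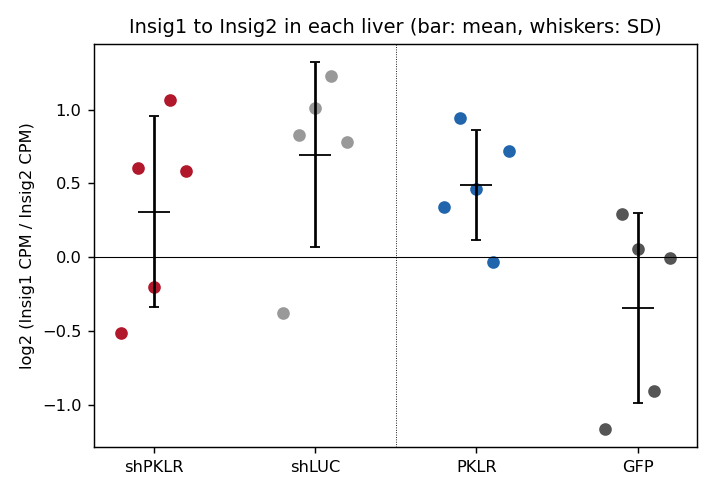
Log2 of Insig1 CPM over Insig2 CPM (vertical axis) in each liver; points are livers, the bar is the group mean and the whiskers are the SD (n = 5). The mean is 0.31 in shPKLR livers, 0.69 in shLUC livers, 0.49 in PKLR livers and -0.35 in GFP livers, and the spread within each group is wide.

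Stard4, the gene of a soluble carrier that moves cholesterol between membranes, was the member called in a single experiment. The PKLR livers read 74.2, 91.1, 66.6, 86.8 and 74.5 CPM, against 33.5, 46.8, 61.1, 35.1 and 57.2 CPM in the GFP livers. Every PKLR liver was above every GFP liver, by a small margin between PKLR replicate 3 and GFP replicate 3. Stard4 rose to 78.6 ± 10.05 CPM in PKLR livers, against 46.7 ± 12.5 CPM in GFP livers (SD, n = 5 each), 1.68 times the control (log2 fold change 0.75, SE 0.17, adjusted p = 0.0481). That call is narrow: 12 of 17 alternatives ended it, 8 of them by leaving out 1 library (any PKLR liver, or GFP replicate 1, 2 or 4), with adjusted p up to 0.102.

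With the hairpin, Stard4 read 36.5, 56.1, 41.3, 35.2 and 61.0 CPM in shPKLR livers, against 58.0, 92.6, 67.4, 75.7 and 80.8 CPM in shLUC livers. The ranges overlapped through shPKLR replicate 5 alone, which lay above shLUC replicate 1. The log2 fold change was -0.70 (SE 0.18, 95% interval -1.10 to -0.31, adjusted p = 0.198), or 61.4% of the control. The effects differed by 1.43 between the experiments (SE 0.26, 95% interval 0.89 to 1.97, adjusted p = 0.00366).

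Tmem97 read 40.0, 65.8, 50.1, 40.1 and 49.9 CPM in shPKLR livers, against 64.9, 65.3, 66.1, 85.8 and 63.8 CPM in shLUC livers. Of the shPKLR livers 4 were below every shLUC liver, and replicate 2 was inside the control range. The log2 fold change was -0.49 (SE 0.15, 95% interval -0.82 to -0.16, adjusted p = 0.241). With PKLR it averaged 63.2 ± 5.01 CPM, against 59.2 ± 13.4 CPM with GFP (SD, n = 5 each), a log2 fold change of 0.09 (SE 0.14, 95% interval -0.21 to 0.39, adjusted p = 0.759). The difference of effects of 0.56 (SE 0.21, adjusted p = 0.108) was called in 1 of 27 alternatives, the fit without shPKLR replicate 2 (0.69, adjusted p = 0.0379).

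Mylip, the ubiquitin ligase of lipoprotein uptake, was the lowest of the 7 per exon length and was not called in any comparison. It averaged 6.33 ± 0.653 CPM in shPKLR livers and 6.63 ± 1.16 CPM in shLUC livers (log2 fold change -0.07, SE 0.15, 95% interval -0.39 to 0.25, adjusted p = 0.821). In PKLR livers it averaged 6.08 ± 2.04 CPM and in GFP livers 6.37 ± 1.67 CPM (log2 fold change -0.06, SE 0.26, 95% interval -0.62 to 0.50, adjusted p = 0.921; SD, n = 5 each). The groups overlapped in both experiments. Its difference of effects was -0.02 (SE 0.30, adjusted p = 0.979).

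The other genes of the pathway came from lists chosen with earlier results of these data known. Among 18 enzymes from mevalonate kinase to cholesterol, the route that SREBP-2 drives, 18 had a negative log2 fold change with shPKLR (median -1.01) and 17 a positive one with PKLR (median 0.75). None of the 18 was called with shPKLR by edgeR, although 16 were lower at an unadjusted p under 0.05, against 5.66% of all genes. DESeq2 called 13 of them lower, against 0.884% of all genes, and limma-voom 0, against 0.0448%. With PKLR 4 rose in edgeR (Mvd, Fdps, Lss and Hsd17b7), against 1.19% of all genes. DESeq2 called 11 of the 18 higher, against 3.37% of all genes, and limma-voom 6, against 0.966%. Lss, which closes the sterol rings, averaged 23.8 ± 4.12 CPM in shPKLR livers and 48.5 ± 12.6 CPM in shLUC livers (log2 fold change -1.03, SE 0.19, adjusted p = 0.109). Dhcr7, the enzyme of the last step on 1 branch, averaged 52.4 ± 10.3 CPM in shPKLR livers and 103 ± 21.8 CPM in shLUC livers (adjusted p = 0.109). Mvd, the decarboxylase that ends the mevalonate steps, rose to 23.9 ± 5.26 CPM in PKLR livers, against 7.02 ± 2.86 CPM in GFP livers (log2 fold change 1.77, SE 0.25, adjusted p = 0.0109). Hsd17b7, a sterol ketone reductase, rose to 48.6 ± 7.68 CPM in PKLR livers, against 29.3 ± 6.77 CPM in GFP livers (adjusted p = 0.0371). For 15 of the 18 the difference of effects was called, positive, against 2.75% of all genes; the smallest p were those of Mvd (3.55) and Lss (2.04).

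The 13 genes of SREBP cleavage and Insig turnover had medians of -0.20 with shPKLR and -0.01 with PKLR. Rnf145, a ubiquitin ligase that acts on Scap in mouse liver, fell to 10.8 ± 1.95 CPM in PKLR livers, against 21.2 ± 3.26 CPM in GFP livers (log2 fold change -0.97, SE 0.14, adjusted p = 0.00781; SD, n = 5 each); 0.846% of all genes were called lower with PKLR. Its difference of effects was -1.45 (SE 0.31, adjusted p = 0.0105), opposite in sign to those of Srebf2, Insig1 and Stard4. With shPKLR the smallest p-values of this list were those of Mbtps2, a protease that cleaves SREBPs (-0.39, adjusted p = 0.323), and Gsk3b, a kinase that marks nuclear SREBP for degradation (-0.34, adjusted p = 0.334). Gsk3b had a log2 fold change of 0.18 with PKLR (adjusted p = 0.170). Apart from Rnf145, none of the 13 was called in the 3 comparisons by edgeR, DESeq2 or limma-voom.

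The 17 genes of lipoprotein uptake and sterol transport within the cell had medians of 0.01 with shPKLR and -0.01 with PKLR. Osbp, which exchanges cholesterol for a phosphoinositide between membranes, rose to 58.2 ± 2.35 CPM in PKLR livers, against 45.0 ± 2.33 CPM in GFP livers (log2 fold change 0.37, SE 0.06, adjusted p = 0.0158; SD, n = 5 each). With the hairpin it was at 36.3 ± 6.92 CPM in shPKLR livers and 50.8 ± 4.78 CPM in shLUC livers (log2 fold change -0.49, adjusted p = 0.224), and its difference of effects, 0.83, was called (adjusted p = 0.00402). Gramd1a and Gramd1c carry cholesterol from the plasma membrane inward. Gramd1a had log2 fold changes of 0.69 with shPKLR (adjusted p = 0.293) and -0.10 with PKLR (adjusted p = 0.730). Those of Gramd1c were 0.39 with shPKLR (adjusted p = 0.393) and 0.28 with PKLR (adjusted p = 0.168). Apart from Osbp, no gene of this list was called.

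The list of LXR receptors and targets held 7 genes and did not cover every LXR target. Mylip also belongs to that group by regulation. None of the 7 was called by edgeR in any comparison. At an unadjusted p under 0.05 there were 2 with shPKLR, against 15% of all genes, and 0 with PKLR, against 18.8% of all genes. The difference had 2 at that level, against 25.7% of all genes. DESeq2 called 1 of the 7, Abcg5, higher with shPKLR, against 0.782% of all genes, and limma-voom called 0. Abcg5, a sterol exporter into bile, averaged 74.6 ± 20.6 CPM in shPKLR livers and 47.5 ± 6.83 CPM in shLUC livers (log2 fold change 0.65, adjusted p = 0.213). Lpcat3, which remodels phospholipids, had a log2 fold change of -0.40 with shPKLR (adjusted p = 0.287). With PKLR the smallest p-values were those of Abcg1 (-0.44, adjusted p = 0.369) and of the receptor gene Nr1h2 (0.09, adjusted p = 0.585).

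**Figure D4:**
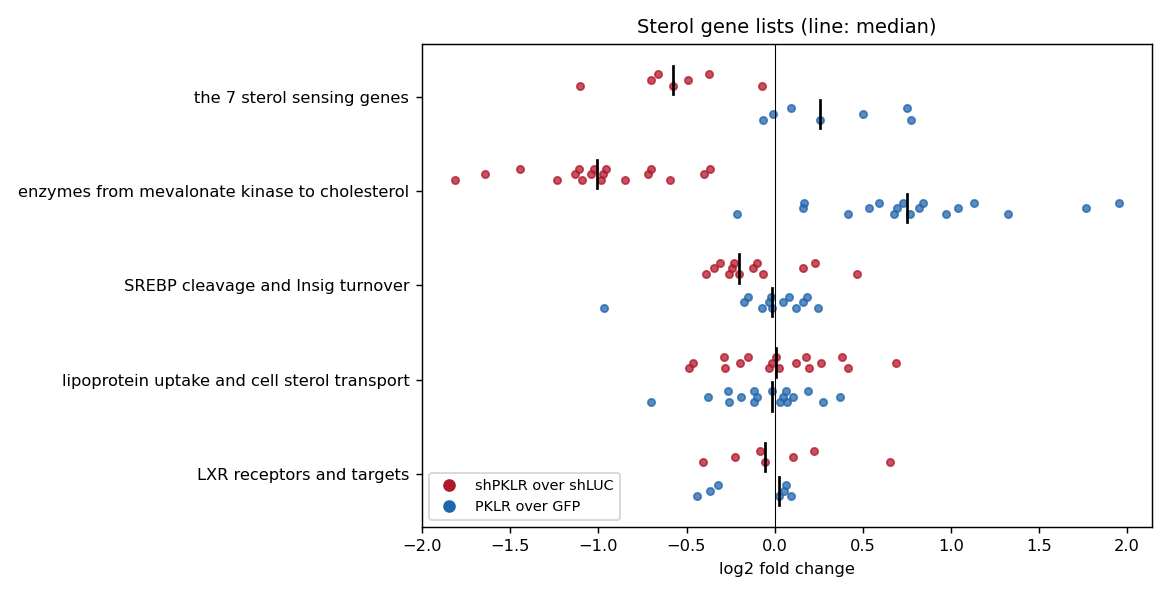
Log2 fold changes (horizontal axis) of single genes for shPKLR over shLUC and PKLR over GFP, in the 7 sterol sensing genes and 4 lists; each point is a gene and the black line is the median. The enzyme list has medians of -1.01 and 0.75, and the medians of the other 3 lists lie between -0.20 and 0.03.

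Covariation from liver to liver is described over 20 livers after each group's mean was taken off log2 CPM. Here TMM scaling was over all 20 libraries together. The values are a description, and livers of an experiment share a count table. Srebf2 and Scap went together most closely (Pearson r 0.84, Spearman rho 0.80, r 0.80 without the 2 livers most extreme in Srebf2). Stard4 followed Scap (r 0.73, rho 0.74), Insig1 (r 0.68, rho 0.68) and Srebf2 (r 0.66, rho 0.63). Insig1 and Insig2 ran against each other (r -0.57, rho -0.65, r -0.55 without the 2 livers most extreme in Insig1), and Insig2 was negative with each of the other 6 over all 20 livers. Without the 2 livers most extreme in the other gene, that sign turned for Srebf2 (r -0.09, then 0.23), and for Scap (r -0.28) it became 0.01. Without the 2 livers most extreme in Insig2, r was -0.34 with Srebf2, -0.46 with Scap and -0.49 with Stard4. It was then -0.43 with Tmem97, -0.58 with Insig1 and -0.02 with Mylip. Tmem97 had its highest value with Srebf2 (r 0.59), which was 0.34 without the 2 livers most extreme in Tmem97.

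**Figure D5:**
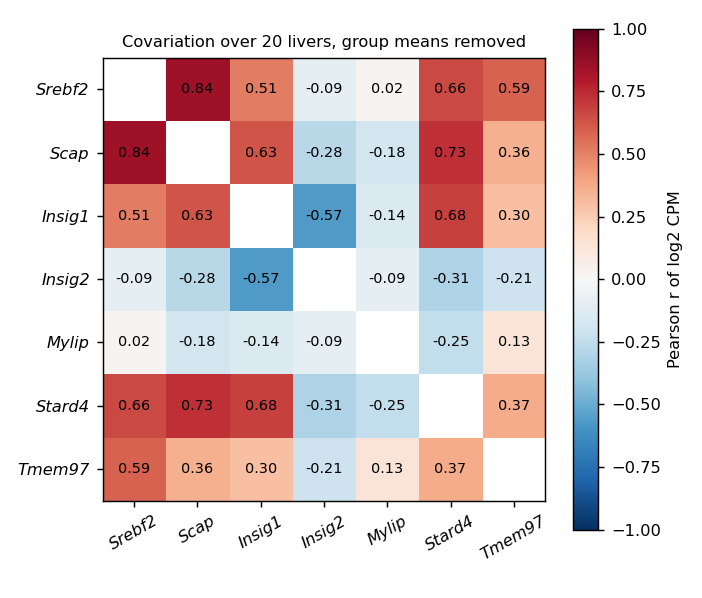
Pearson r of log2 CPM between the 7 genes over 20 livers after removal of each group's mean; colour and printed number both give r, from -1 to 1. Srebf2 with Scap is highest at 0.84 and Insig1 with Insig2 is lowest at -0.57.

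The genes most like each member were sought among 11453 genes by the same r. For Srebf2 these were Zc3h7b (0.88), Acsf3 (0.87) and Tspan9 (0.87), and for Scap Casp9 (0.90), Foxo3 (0.89) and Col18a1 (0.88). Nearest to Insig1 was Mid1ip1 (0.87), whose product activates acetyl-CoA carboxylase, followed by Anks4b (0.82) and Kptn (0.81). Insig2 was closest to Arl4a (0.87), Clpx (0.86) and Ttc30b (0.82), and genes near Stard4 were Wdcp (0.81) and Rbm47 (0.81). Tmem97 was nearest to Cyp7a1 (0.80), the gatekeeper enzyme of bile acid synthesis, Cd34 (0.75) and Fdft1 (0.75), the squalene synthase. Mylip stood nearest to Ccnd2 (0.91), Clec14a (0.90), a lectin of endothelial cells, and Cyp4b1 (0.89).

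Markers of other liver cells moved with some members. For Mylip, r with the 6 endothelial markers was positive in 6 of 6, from 0.59 to 0.87 (Kdr), with a mean of 0.72; their summed level was 80.6 to 133 CPM in shPKLR livers, 78.8 to 125 CPM in shLUC livers, 66.6 to 119.8 CPM in PKLR livers and 61.9 to 113 CPM in GFP livers. With the 8 macrophage and Kupffer cell markers r was negative in 8 of 8 for Stard4 (mean -0.55), Insig1 (-0.46), Scap (-0.44) and Tmem97 (-0.24), and in 7 of 8 for Srebf2 (-0.34). For Mylip it was positive in 8 of 8 (mean 0.40), and for Insig2 in 6 of 8 (mean 0.04). Those 8 markers summed to 105 to 287 CPM in shPKLR livers, against 115 to 211 CPM in shLUC livers, and to 82.1 to 264 CPM in PKLR livers, against 89.9 to 363 CPM in GFP livers. Within their groups the highest sums were in shPKLR replicate 1 and GFP replicate 1, which were also the lowest of their groups for Srebf2, Scap and Insig1. In shLUC livers the highest sum was in replicate 2, the highest of its group for Srebf2, Scap and Stard4. In PKLR livers it was in replicate 5, the lowest of its group for Srebf2 but not for Scap or Insig1. None of the endothelial or macrophage markers was at 0 in any library. Stellate cell and fibroblast markers summed to 139 to 267 CPM in PKLR livers, against 213 to 455 CPM in GFP livers. Their r with Mylip was positive in 8 of 8 (mean 0.43), and that of the hepatocyte markers in 1 of 8 (mean -0.24). Without shPKLR replicate 1 the difference of effects was 0.95 for Srebf2, 1.80 for Insig1 and 1.36 for Stard4. Without GFP replicate 1 it was 0.99, 1.73 and 1.34, with all 6 values called. Each of these fits left out 1 liver only, and the part of other liver cells in the results was not tested.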

How the data were processed

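Liver RNA of 20 mice was extracted from frozen tissue and made into libraries with a stranded total RNA kit, per the labels' protocols. The authors deposited whole-number read counts per gene, not normalized, as 1 table of 27052 genes for the knockdown and 1 of 26286 for the overexpression; 0 value columns were left unmatched. The submitters' processing notes name HISAT2, DESeq2, GRCm38 and mm10 with no role or version. For the counting program, the annotation and the strand setting, nothing is given in the sources used here. Identifiers were matched to the GENCODE annotation of GRCm38 (26859 and 26094 matched).

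Each experiment was tested with edgeR 4.0.16 in R 4.3.3 (quasi-likelihood, robust, filterByExpr, TMM, Benjamini-Hochberg over all genes tested, called at 0.05), and the difference of effects in 1 model of 20 libraries. SE is the log2 fold change over the root of F, and intervals are 95%. Log2 CPM for ratios and covariation used a prior count of 2. The steps were tested on simulated counts. Members and lists were chosen with earlier results of these data known. The named genes are the members, Pklr, up to 2 genes of smallest p per list and comparison, and the 3 most like each member among genes of at least 1 CPM; 1 gene that this rule names is not reported here. Alternatives were RLE size factors, other filters, DESeq2 1.42.0, limma-voom (limma 3.58.1), the replicate number as a block, shPKLR replicate 4 thinned, 1 fit of 20 libraries and each library left out. P-values set a difference between groups against the spread between these livers.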

Additional observations from a re-analysis of the deposited data

Results flagged for a closer look

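In 3 of 28 groups of a gene, 1 liver stood apart from the other 4, with a gap to the nearest liver, over the range of the group, above Dixon's critical value. Chance marks about 1 in 20 groups. Scap was at 139.8 CPM in PKLR replicate 2, Insig2 at 382 CPM in shLUC replicate 1, and Tmem97 at 85.8 CPM in shLUC replicate 4; each was the highest of its group. All 3 genes had no call in either experiment. Outside these 28 groups, Pklr was also above that critical value in PKLR replicate 4, the lowest of its group at 389 CPM.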

How the results depend on the processing

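The difference of effects in Srebf2, Insig1 and Stard4 was called, positive, in all 27 alternatives, and these 3 were the members called in each, with Tmem97 added without shPKLR replicate 2, so that 3 to 4 were called with 1 library left out. Calls within 1 experiment depended on the setting. In the knockdown, 1 gene was called in all and 0 of the 7; RLE size factors gave 7 genes and 1 of the 7, no filter on low counts 17 and 1, limma-voom 8 and 1, 1 fit of all 20 libraries 114 and 1 (Insig1 each time), and DESeq2 260 and 2. With 1 library left out the counts were 1 to 12 genes and 0 to 1 of the 7. In the overexpression, 322 genes were called and 1 of the 7, Stard4; RLE size factors and the stricter filter on low values, at 1 CPM, each gave 0 of the 7, 1 fit of all 20 libraries 2 (Insig1, Stard4), and DESeq2 1107 genes and 3 of the 7 (Srebf2, Insig1, Stard4). No filter on low counts gave 1 of the 7, Srebf2 in place of Stard4. With 1 library left out these were 128 to 469 genes and 0 to 2 of the 7; Stard4 held only without GFP replicate 3 or GFP replicate 5. The difference of effects had 902 calls, 1626 with DESeq2 and 485 to 1384 with 1 library left out. The cause was not tested.

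Values near 0 changed sign. Insig2 with PKLR, at -0.01, was 0.0023 with no filter and -0.11 to 0.082 with 1 library left out. Mylip ran from -0.16 to 0.018 in the knockdown and from -0.20 to 0.078 in the overexpression with 1 library left out. Its difference of effects, at -0.02, was 0.0072 with RLE size factors, 0.011 with no filter, 0.0066 with DESeq2 and -0.15 to 0.13 with 1 library left out. The log2 ratio of Insig1 to Insig2 with PKLR differed from GFP by 0.63 to 0.99 with 1 liver left out.

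Same-numbered livers of the vector and its control had correlations of their deviations from -0.20 to 0.35 in the knockdown and from -0.11 to 0.26 in the overexpression, and 1 of 5 and 2 of 5 were closest to their own number, so the numbers were not taken to pair the livers. With the replicate number as a block the knockdown had 3 calls and 1 of the 7 (Insig1), the overexpression 544 and 2 of the 7 (Srebf2, Insig1), and the difference 962 and the same 3. Pairing by number left the ratio difference at -0.39 with shPKLR (exact sign-flip p = 0.0625, against 0.310 unpaired) and at 0.83 with PKLR (exact sign-flip p = 0.0625, against 0.0397 unpaired); 0.0625 is the smallest p that 5 pairs allow. Mylip had the fewest counts of the 7, with 95 to 998 a library, and the part of depth in its results was not tested.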
